A study of Homo sapiens with 6 samples.

Results

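The 10 genes described here encode the retinoblastoma (RB) pathway's core: the RB family genes RB1, RBL1 and RBL2, the inhibitor genes CDKN2A and CDKN2C, the D-type cyclin genes CCND1, CCND2 and CCND3, and the kinase genes CDK4 and CDK6. They were taken by gene symbol from the platform annotation, and 9 of the 10 were measured among 18404 genes; CDKN2C is not analysed here. RNA levels were compared between H69M and H69, which the labels both give as small cell lung cancer cell lines, with 3 arrays of each. No treatment, genotype or time is given for either line, and the origin of H69M is not in the labels. Whether the 3 arrays of a line came from separate cultures is not stated either, so the p-values measure a spread that may be technical.

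RB1 and its relatives bind E2F transcription factors and hold back genes needed for DNA replication. D-type cyclins bind CDK4 or CDK6, and the resulting kinases phosphorylate the RB family and release E2F, while INK4 inhibitors such as the product of CDKN2A bind CDK4 and CDK6 directly. Small cell lung cancer is known for loss of RB1 function, often together with abundant CDKN2A product, so that in most such tumours the D-type cyclin kinases no longer have RB1 to act on. An array measures RNA per probe set, not protein, phosphorylation or mutation.

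Array medians ran from 6.43 to 6.48 (log2, all probe sets). Across genes, r was 0.995 to 0.998 within a line and 0.938 to 0.950 between lines. Of the small cell neuroendocrine markers, 6 of 9 measured were lower in H69M and 0 higher, and their summed log2 level was 82.5 to 85.2 in H69M and 88.9 to 89.3 in H69. The neuroendocrine transcription factor gene INSM1 averaged 10.10 ± 0.18 in H69M, against 10.43 ± 0.047 in H69 (log2, SD, n = 3), the smallest of these 6 falls. The INSM1 call was lost without H69 replicate 2 or 3 or H69M replicate 2 or 3 (limma adjusted p = 0.0506 to 0.0704). The other falls were NCAM1 (-1.35), CHGB (-1.14), GRP (-1.07), SYP (-0.80) and ENO2 (-0.61, log2 fold change). CHGA (-0.26), DLL3 (-0.066) and UCHL1 (0.12) did not pass. These neuroendocrine markers were named after their values were seen. All 10 fibroblast markers were higher in H69M, with a summed log2 level of 87.8 to 91.9 in H69M and 54.0 to 54.6 in H69. Their H69 levels ranged widely, from DCN, LUM and FAP at percentiles 1.8, 4.7 and 7.9 of all genes to COL1A2 at 75.8. DCN was dim in H69M as well (percentile 14.8). Whether the dimmest were above background is not known, and these 4 were named after their values were seen. Epithelial markers were mixed (2 higher and 4 lower of 7), as were endothelial (2 and 1 of 7) and leukocyte markers (1 and 3 of 6). Over all genes 21% were higher and 23.2% lower in H69M. The part of the listed markers in the differences below was not tested.

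Of the 9 measured genes, 4 were higher in H69M (CDK6, CDKN2A, RBL2 and CCND1), 0 were lower and 5 did not pass the test (RB1, RBL1, CCND2, CCND3 and CDK4). The test was limma over all genes, with p-values adjusted by the Benjamini-Hochberg (BH) method and a threshold of 0.05; at an unadjusted p under 0.05 the count of lower members was also 0. The largest of the 4 rises was 1.76-fold, for CDK6, and 0 members also had a log2 fold change of at least 1, as 8.28% of all genes did. Over all genes 44.2% were called, 21% higher and 23.2% lower in H69M, so the share of members called, 44.4%, was that of any gene. The median log2 fold change was 0.13 for the 9 members and -0.041 for all genes. H69M and H69 arrays stood fully apart in 55.8% of all genes (25.8% higher and 30% lower in H69M), and in the 4 called members.

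**Figure D1:**
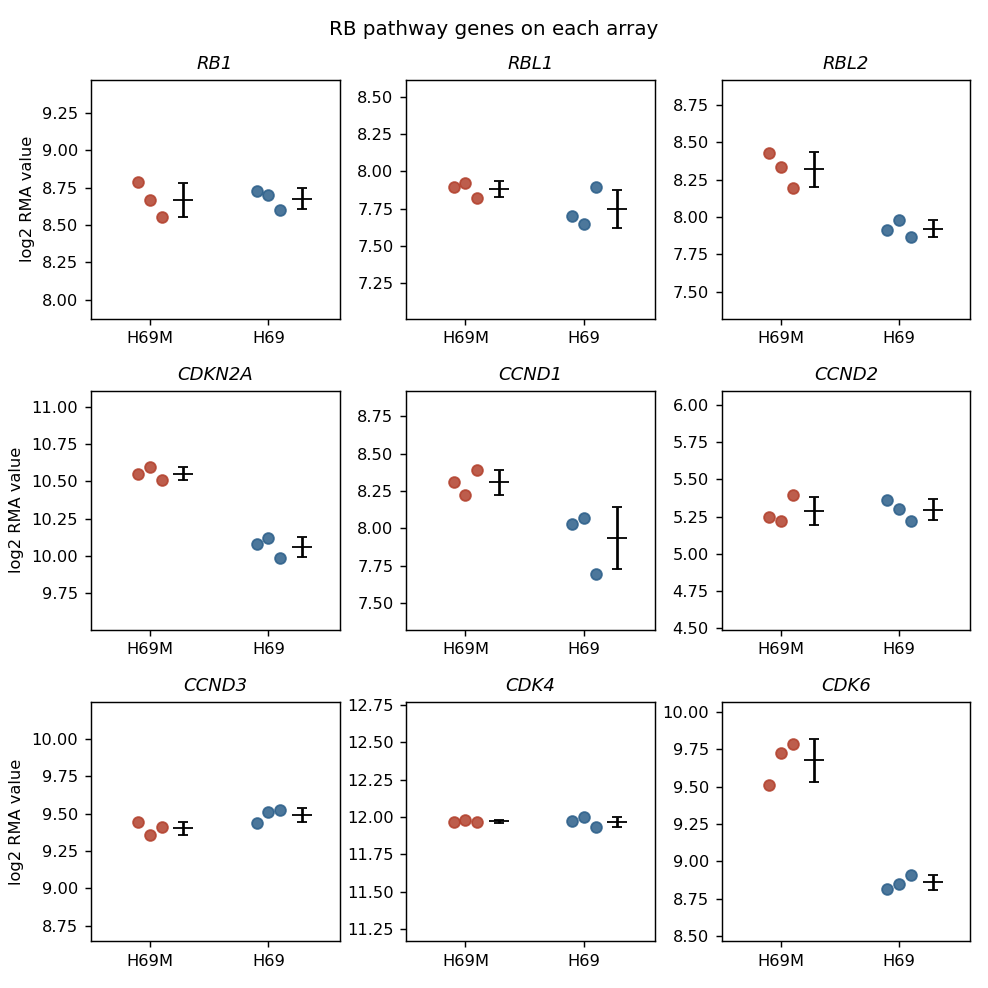
Level of each measured RB pathway gene on every array, as the deposited log2 value (vertical axis, the same span of 1.6 log2 units in each panel), with H69M left and H69 right; the bars beside the points are the mean and SD of 3 arrays. The H69M arrays lie above all H69 arrays for RBL2, CDKN2A, CCND1 and CDK6, and the lines overlap in the other 5 panels.

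RB1, the gene that names the pathway, differed between the lines by less than the spread between arrays. RB1 stood at 8.79, 8.67 and 8.56 in H69M, against 8.73, 8.70 and 8.60 in H69 (log2). The arrays of the lines were interleaved, and the log2 fold change was -0.0073 with a 95% interval of -0.18 to 0.17 (limma, BH-adjusted p = 0.949). In fold terms the interval for RB1 ran from 0.88 to 1.12. The RB1 level ranked at percentile 74.4 of all genes in H69M and 74.6 in H69, which says nothing of an intact protein.

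RBL2, which encodes p130, the family member bound to E2F4 in resting cells, was higher in H69M. RBL2 stood at 8.43, 8.33 and 8.19 in H69M, against 7.91, 7.98 and 7.87 in H69 (log2). The lowest H69M array lay above the highest H69 array, and the log2 fold change was 0.40 ± 0.075 (SE), a 1.32-fold difference (limma, BH-adjusted p = 0.0032). RBL1, which encodes p107, the member that is itself made mostly in cycling cells, stood at 7.89, 7.92 and 7.82 in H69M, against 7.70, 7.65 and 7.89 in H69 (log2). H69 replicate 3 lay within the H69M range, and the RBL1 difference of 0.13 (95% interval -0.049 to 0.31) did not pass (limma adjusted p = 0.214). Without H69 replicate 3 the RBL1 log2 fold change was 0.20 and the limma adjusted p = 0.0524. Within each array, RBL2 minus RB1 differed between the lines by 0.41 (H69M minus H69), with no overlap and an exact two-sided permutation p = 0.1, the smallest that 3 arrays against 3 can give.

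The RBL1 promoter is shown because, of the member windows searched, it alone held letters of the E2F motif, which E2F factors bind. The sequence is the 250 bases before the RBL1 start in RefSeq (GRCh38.p14, chr20:37095998-37096247, minus strand), with matches to the E2F forms TTTCCCGC, TTTGGCGC, TTTCGCGC or TTTGCCGC on either strand in capitals.
RBL1: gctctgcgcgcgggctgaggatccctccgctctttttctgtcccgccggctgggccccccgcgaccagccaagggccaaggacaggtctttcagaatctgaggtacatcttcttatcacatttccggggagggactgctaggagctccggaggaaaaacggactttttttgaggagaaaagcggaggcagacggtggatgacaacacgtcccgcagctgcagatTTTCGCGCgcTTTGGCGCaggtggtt
The RBL1 window held TTTCGCGC at -26 to -19 and TTTGGCGC at -16 to -9, counted from the start, which do not overlap. Of 35116 such windows of all genes, 2.79% held any of these forms. The matches describe the letters of the window and not a bound site. RefSeq windows were found for 8 of the 10 members. CCND1 and CCND2 had no entry. The only RB1 window lay 172699 bases inside the gene, was searched like the others and held 0 E2F forms and 0 GC boxes.

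CDKN2A, among the brighter genes of H69, was higher still in H69M. CDKN2A encodes the INK4A inhibitor and, from another first exon, the ARF protein that restrains MDM2. It stood at 10.55, 10.60 and 10.51 in H69M, against 10.08, 10.12 and 9.98 in H69 (log2). No array of H69M fell within the H69 range, and the log2 fold change was 0.49 ± 0.062 (SE), or 1.40-fold with a 95% interval of 1.27 to 1.55 (limma, BH-adjusted p = 0.000385). The level ranked at percentile 94.98 of all genes in H69M and 91.6 in H69. The platform lists transcripts of both INK4A and ARF under the 1 probe set of CDKN2A, so a difference in either could give this value.

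The starts of the 2 CDKN2A transcripts are shown because the array cannot tell them apart. Each is the 250 bases before a RefSeq start on the minus strand of GRCh38.p14, the upstream one at chr9:21995325-21995574 and the downstream one at chr9:21974858-21975107, with the GC box GGGCGG, searched on both strands, in capitals.
CDKN2A upstream start: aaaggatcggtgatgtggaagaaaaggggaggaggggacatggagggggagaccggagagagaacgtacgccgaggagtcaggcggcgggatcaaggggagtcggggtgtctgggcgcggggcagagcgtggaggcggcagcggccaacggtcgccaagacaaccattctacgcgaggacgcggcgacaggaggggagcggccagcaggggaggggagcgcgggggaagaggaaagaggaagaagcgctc
CDKN2A downstream start: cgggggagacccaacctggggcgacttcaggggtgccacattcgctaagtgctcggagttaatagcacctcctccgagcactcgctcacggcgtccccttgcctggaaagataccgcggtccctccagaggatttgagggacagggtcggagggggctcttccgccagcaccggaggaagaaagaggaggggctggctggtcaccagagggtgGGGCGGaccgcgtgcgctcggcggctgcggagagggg
The downstream window held 1 GC box and the upstream window 0, while 42.6% of all windows held at least 1. Both windows were 66.8% G and C, and neither held an E2F form.

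CCND1, the D-type cyclin gene that many growth signals induce, rose by a small amount. CCND1 stood at 8.31, 8.22 and 8.39 in H69M, against 8.03, 8.07 and 7.69 in H69 (log2). The lines did not overlap, but H69 replicate 3 lay well below the other H69 arrays. Without H69 replicate 3 the CCND1 log2 fold change shrank to 0.26. The log2 fold change was 0.38 ± 0.11 (SE), or 1.30-fold with a 95% interval of 1.09 to 1.54 (limma, BH-adjusted p = 0.0218). The CCND1 call was lost without H69M replicate 1 (limma adjusted p = 0.0513) and without H69M replicate 3 (0.0638), and over all alternatives the adjusted p ran from 0.00933 to 0.0638.

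The other D-type cyclins did not pass the test. CCND2, whose product can replace the other D-type cyclins in many tissues, was dim in both lines, at 5.25, 5.22 and 5.40 in H69M, against 5.36, 5.30 and 5.22 in H69 (log2). Its arrays were interleaved at percentiles 21.2 of all genes in H69M and 22.2 in H69, and the log2 fold change of -0.0077 had a 95% interval of -0.17 to 0.16 (limma adjusted p = 0.942). CCND3 stood at 9.44, 9.35 and 9.41 in H69M, against 9.44, 9.51 and 9.53 in H69 (log2). The CCND3 ranges touched, and the log2 fold change of -0.090 (95% interval -0.22 to 0.045) did not pass (limma adjusted p = 0.251). Within each array, CCND1 minus CCND3 differed between the lines by 0.47 (H69M minus H69), and CCND1 minus CCND2 by 0.38, each without overlap and with an exact permutation p = 0.1.

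Of the kinase genes, CDK6 was higher in H69M and CDK4 did not pass the test. CDK6 stood at 9.51, 9.73 and 9.79 in H69M, against 8.82, 8.85 and 8.91 in H69 (log2). The gap between the lines was wider than the range within either, and the log2 fold change was 0.82 ± 0.082 (SE), or 1.76-fold with a 95% interval of 1.55 to 2.01 (limma, BH-adjusted p = 0.000111). Of all genes, 89.0% had a smaller absolute log2 fold change than CDK6. CDK4, the sister kinase with the same partners, stood at 11.97, 11.98 and 11.96 in H69M, against 11.97, 12.00 and 11.93 in H69 (log2). It ranked at percentile 99.3 of all genes in both lines, and the log2 fold change of 0.0029 had a 95% interval of -0.12 to 0.13 (limma adjusted p = 0.971). Within each array, CDK6 minus CDK4 differed between the lines by 0.81 (H69M minus H69), with no overlap and an exact permutation p = 0.1. In all, 6 such pairs were compared, and each had an exact permutation p = 0.1 before and after BH adjustment. All but CDKN2B minus CDKN2A set a called member against one that did not pass. The pair values are therefore no separate support for those calls.

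The CDK6 promoter is shown as that of the member with the largest rise. The sequence is the 250 bases before the outer CDK6 start in RefSeq (GRCh38.p14, chr7:92836574-92836823, minus strand), with GGGCGG on either strand in capitals.
CDK6: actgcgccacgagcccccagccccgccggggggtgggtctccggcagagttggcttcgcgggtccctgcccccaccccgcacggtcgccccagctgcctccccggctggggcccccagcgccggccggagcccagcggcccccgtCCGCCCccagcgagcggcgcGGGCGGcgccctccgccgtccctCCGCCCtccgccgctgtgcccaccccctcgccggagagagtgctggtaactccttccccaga
The CDK6 window was 80.0% G and C, against a median of 58.0% over all windows, and held 3 GC boxes and 0 E2F forms. The CDK4 window, of a gene whose level did not pass, also held 3 GC boxes.

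**Figure D2:**
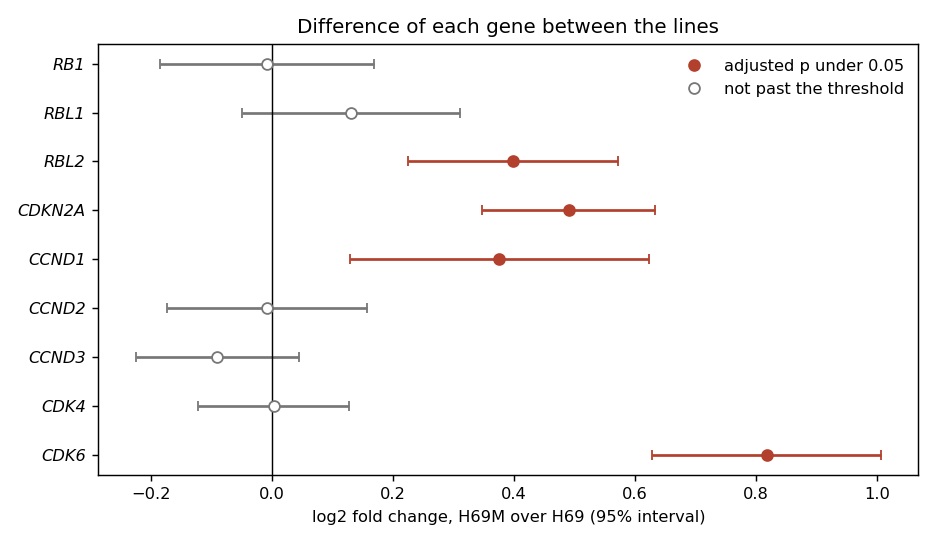
Log2 fold change of each RB pathway gene, H69M over H69 (horizontal axis), with its 95% interval from limma; filled points passed the adjusted p threshold of 0.05. CDK6 lies farthest right at 0.82, followed by CDKN2A at 0.49, RBL2 at 0.40 and CCND1 at 0.38, and the intervals of the other 5 genes cross 0.

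Of the 6 other CDK inhibitor genes, 1 was higher and 2 were lower in H69M (16.7% and 33.3%). Over all genes 21% were higher and 23.2% lower, and no list below was tested against these shares. CDKN2B, the INK4 gene beside CDKN2A, stood at 8.12, 8.33 and 8.19 in H69M, against 7.48, 7.45 and 7.10 in H69 (log2). All H69M arrays were above all H69 arrays, with a log2 fold change of 0.87 ± 0.11 (SE; limma, BH-adjusted p = 0.000401). Of the CIP/KIP genes, whose products bind cyclin-kinase complexes and chiefly restrain CDK2, CDKN1A (p21) stood at 8.14, 8.02 and 8.14 in H69M, against 9.49, 9.51 and 9.40 in H69 (log2). CDKN1B (p27) stood at 8.65, 8.59 and 8.65 in H69M, against 9.12, 9.18 and 9.21 in H69 (log2). CDKN1A and CDKN1B were lower on every H69M array than on any H69 array, CDKN1A 2.58-fold and CDKN1B 1.45-fold (limma adjusted p = 1.9e-06 and 0.000152). The other 3 did not pass, CDKN1C (p57), also a CIP/KIP gene, having 0.044, CDKN2D -0.12 and CDKN3 -0.018 (log2 fold change); they were named after their values were seen.

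Among the E2F and DP factor genes, 3 of 10 were higher in H69M and 3 lower, with a median log2 fold change of -0.12. Each share was 30%, against 21% higher and 23.2% lower over all genes. The members that rose were TFDP2, a dimer partner of E2F (0.67 ± 0.069, log2, SE), E2F4, the repressor E2F that pairs with p130 (0.37 ± 0.069), and E2F5, of the same class (0.30). Those that fell were E2F7 (-0.59 ± 0.057), an atypical repressor that needs no DP partner, E2F2 (-0.56 ± 0.087), an activator, and E2F8 (-0.18). E2F5 and E2F8 were named after their values were seen, and their calls were weak. The E2F5 call was lost on leaving out H69 replicate 1 or 3 or H69M replicate 1 or 2 (limma adjusted p = 0.058 to 0.11). The E2F8 call was lost on leaving out any array but H69M replicate 3 (0.0534 to 0.129), with centred arrays (0.080) and with quantile normalization again (0.0595). E2F1, the best known activator and an E2F target itself, stood at 9.44, 9.36 and 9.46 in H69M, against 9.53, 9.58 and 9.40 in H69 (log2). The E2F1 ranges overlapped, and the log2 fold change of -0.085 did not pass (limma adjusted p = 0.354).

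The cyclin E, cyclin A and CDK2 genes act downstream of the D-type cyclins, and they were listed with CDC25A, which encodes a phosphatase that activates CDK2, and the CDK-activating kinase genes. Of these 9 genes, 4 were lower in H69M and 2, both of the CDK-activating kinase, were higher. The shares were 44.4% lower and 22.2% higher, against 23.2% and 21% of all genes. CDC25A, named after its value was seen, had -0.17 and did not pass (limma adjusted p = 0.065), but passed without H69M replicate 1 (0.0387), with array weights (0.0294) and under either filter on dim genes (0.0433 and 0.0288). CCNA1, a cyclin A gene best known from germ cells, had the largest fall, at 6.76, 6.63 and 7.02 in H69M, against 9.49, 9.60 and 9.35 in H69 (log2). It was 6.41-fold lower in H69M (limma, BH-adjusted p = 1.1e-06). The somatic cyclin A gene CCNA2 had 0.059 and did not pass; it was named after its value was seen. The cyclin E genes CCNE2 (-0.71 ± 0.091, log2, SE) and CCNE1 (-0.61 ± 0.077) fell, and the kinase gene they serve, CDK2, had 0.13 (limma adjusted p = 0.0955), a value that passed when the dimmer 50% of genes was left out (0.0441) and with eBayes trend (0.0336). Of the 3 subunits of the CDK-activating kinase, which phosphorylates CDK4 and CDK6 as well, CCNH fell (-0.56) while CDK7 (0.49) and MNAT1 (0.27), named after their values were seen, rose.

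Of 26 measured E2F target genes, 13 were lower in H69M (50%, against 23.2% of all genes) and 3 were higher (11.5%, against 21% of all genes), with a median log2 fold change of -0.20. The difference between these shares was not tested. The falls were small, led by the DNA polymerase gene POLE (-0.60 ± 0.065, log2, SE) and the replicative helicase genes MCM3 (-0.52 ± 0.058) and CDC45 (-0.49 ± 0.061). TK1, thymidine kinase, went the other way, at 9.40, 9.54 and 9.50 in H69M, against 8.36, 8.30 and 8.26 in H69 (log2). The TK1 rise was 2.25-fold (limma, BH-adjusted p = 4.3e-06). The other 2 targets that rose, named after their values were seen, were MCM10 (0.28) and UHRF1 (0.18). The UHRF1 call was lost on leaving out any 1 array (limma adjusted p = 0.054 to 0.126), with array weights (0.053) and with the mean of its probe sets (0.377).

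The DREAM and MuvB complexes repress or activate cell cycle genes together with p107, p130 or B-MYB. Of 9 genes listed with these complexes, which include the kinase gene DYRK1A, 2 were higher in H69M and 1 lower. That is 22.2% and 11.1%, against 21% and 23.2% of all genes. MYBL2, which encodes B-MYB, rose by 0.34 ± 0.066 (log2, SE), LIN52 by 0.26 ± 0.061, and MYBL1 fell by 0.26. Of 10 RB-binding chromatin protein genes, 0 were higher (limma, 0 also at an unadjusted p under 0.05). Lower in H69M were 3, or 30%, against 23.2% of all genes. These were the demethylase gene KDM5A (-0.39 ± 0.057), the PRC2 methyltransferase gene EZH2 (-0.37 ± 0.065) and the remodeller gene SMARCA2 (-0.36 ± 0.069).

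Genes known to act on D-type cyclins or on CDKN2A came next. Of 21 genes for transcriptional regulators of D-type cyclins, 10 were higher and 4 lower in H69M, with a median log2 fold change of 0.17. The shares were 47.6% and 19.0%, against 21% and 23.2% of all genes, a difference that was not tested. WWTR1 (TAZ; 4.03 ± 0.15, log2, SE), YAP1 (3.23 ± 0.16), TCF7L2 (2.67 ± 0.15), a WNT effector, and MYC (2.11 ± 0.077) led the rises. In H69 WWTR1 and TCF7L2 lay at percentiles 18.5 and 24.2 of all genes, where a level above background is not known. KLF4 (-1.40) and LEF1 (-1.17), a WNT effector of the same family as TCF7L2, led the falls (limma adjusted p = 2.4e-05 and 7.1e-06) and were named after their values were seen. Of 13 genes for turnover and translation of these cyclins, 2 were higher and 1 lower (15.4% and 7.7%). CRYAB, a small heat shock protein that serves as an adaptor in cyclin D1 degradation, stood at 7.58, 7.92 and 7.50 in H69M, against 4.52, 4.26 and 4.17 in H69 (log2), a 10.2-fold difference. In H69 CRYAB lay at percentile 10.8 of all genes, and whether its probe set was above background there is not known, so the fold is that of the deposited values only. USP2, a deubiquitinase known to stabilise cyclin D1, was 2.99-fold lower, and FBXW8, an F-box gene, rose by 0.50 ± 0.062 (log2, SE). Their limma BH-adjusted p was at most 0.000355. Of 10 measured regulators of CDKN2A and its products, 2 were higher and 4 lower (20% and 40%). ID1 (0.54 ± 0.059) and TWIST1 (0.36) rose. MDM2 (-0.76 ± 0.056), the p53 ligase that ARF restrains, the PRC2 genes EED (-0.50 ± 0.060) and EZH2, and ETS1 (-0.29) fell. The third PRC2 gene of the list, SUZ12, had 0.099 and did not pass (limma adjusted p = 0.208); TWIST1, ETS1 and SUZ12 were named after their values were seen. Of 6 phosphatase and chaperone genes, CDC37, the chaperone that loads CDK4 and CDK6 onto HSP90, rose by 0.34 ± 0.067 (log2, SE), and PPP1CC, an RB phosphatase subunit, had -0.16, a call (limma adjusted p = 0.0492) that was lost on leaving out any 1 of the 6 arrays.

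**Figure D3:**
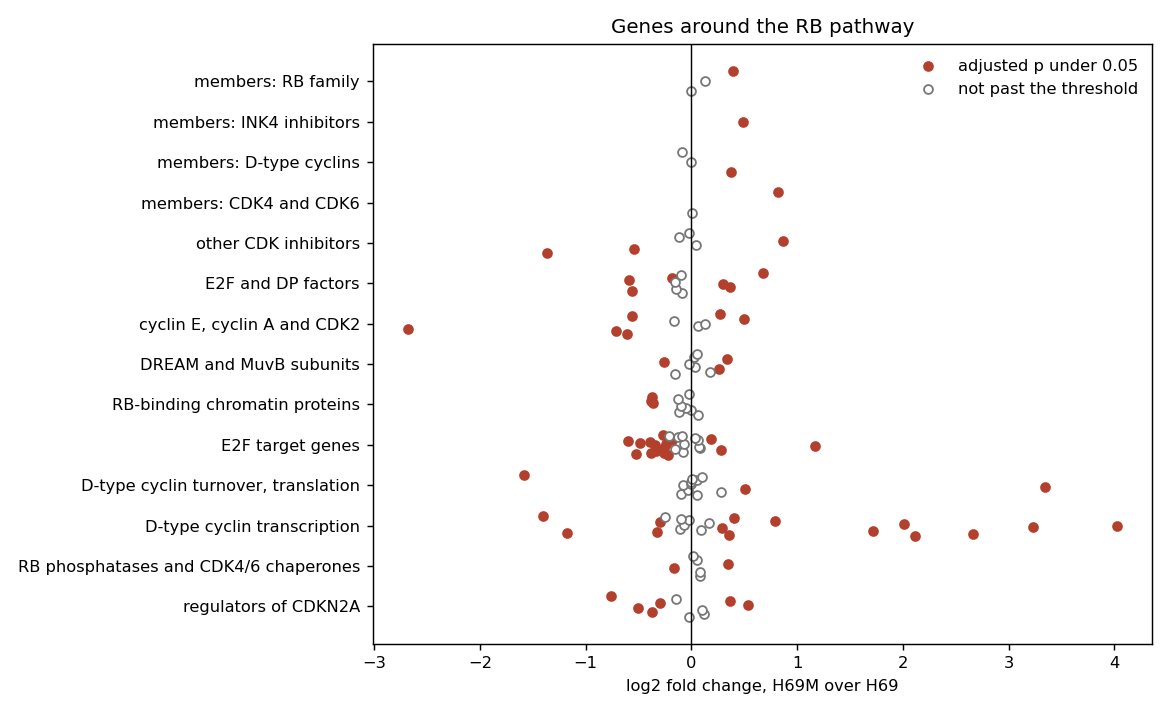
Log2 fold change, H69M over H69 (horizontal axis), of every measured gene in the 4 member groups (top) and 10 surrounding lists, 1 point a gene, filled where the adjusted p was under 0.05. The members lie between -0.090 and 0.82, most E2F targets lie left of 0 and TK1 lies farthest right of them at 1.17, and the regulators of D-type cyclin transcription run from -1.40 to 4.03.

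Members were also set beside their neighbours in the genome. For each, the 5 nearest measured genes on either side in RefSeq order were taken. The order was by start position, so a neighbour may lie within a member. Over all genes 21% were higher and 23.2% lower, and the neighbour counts were not tested against these shares. Beside CDKN2A on chromosome 9, 4 of 10 neighbours were higher and 2 lower: CDKN2B, MIR31 (2.09), IFNE (1.41) and MIR31HG (4.73, log2), the host RNA of miR-31, rose, while DMRTA1 (-0.54) and ELAVL2 (-0.26) fell, the ELAVL2 call being lost without H69 replicate 2 (limma adjusted p = 0.0511). MTAP, between MIR31 and CDKN2A-AS1 in that order, had 0.030 and did not pass. The antisense gene CDKN2A-AS1 had 0.14 (limma adjusted p = 0.0933), which passed with quantile normalization again (0.0372). Beside CDK6 on chromosome 7, 2 were higher and 2 lower, with SAMD9L at 4.56, HEPACAM2 at -0.87 and the nearest gene on each side, RBM48 and SAMD9, at -0.41 and 0.23. The SAMD9 value missed the threshold (limma adjusted p = 0.0717) and passed it on leaving out H69M replicate 1 (0.0129), when the dimmer 50% of genes was left out (0.0366), with eBayes trend (0.0467) and with array weights (0.0274). Beside CCND1 on chromosome 11, 0 were higher and 2 lower, ANO1 (-0.88) and IGHMBP2 (-0.21), and the flanking genes MYEOV (-0.040) and LTO1 (0.050) did not pass. The IGHMBP2 call was lost without H69 replicate 2 (limma adjusted p = 0.0729) and without H69M replicate 2 (0.0661). Beside RBL2 on chromosome 16, 5 were higher and 1 lower, with a median log2 fold change of 0.21. RB1 on chromosome 13 had 4 higher and 1 lower neighbour, with ITM2B (0.89) and LPAR6 (0.51) next to it in the order of starts. These neighbours were named after their values were seen. Of those called, IFNE and LPAR6 averaged below the 25th percentile of gene means over the 6 arrays (5.58, log2). SAMD9L, MIR31HG, MIR31 and ANO1 averaged below the median (7.16). Whether these probe sets were above background in the line where they were lower is not known.

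**Figure D4:**
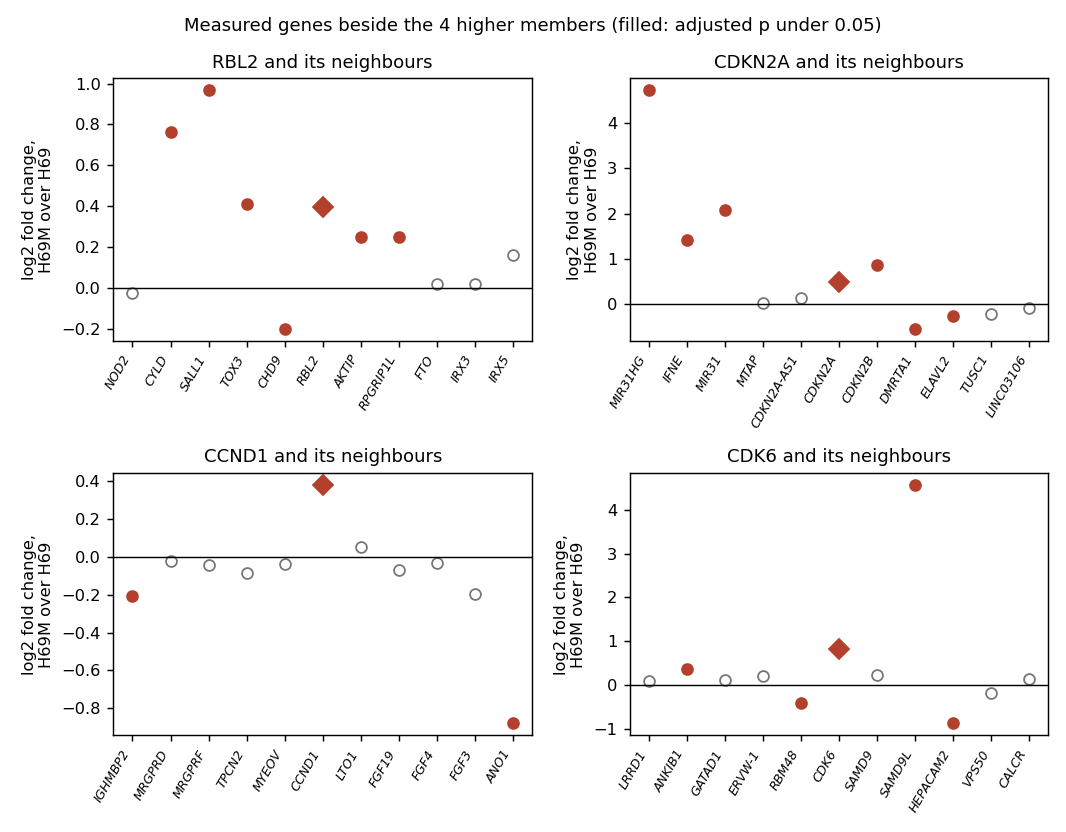
Log2 fold change, H69M over H69 (vertical axis, scaled separately in each panel), of the 4 higher members (diamonds) and the 5 nearest measured genes on each side in RefSeq order (circles), filled where the adjusted p was under 0.05. CCND1 at 0.38 stands above all its neighbours, whereas SAMD9L at 4.56 beside CDK6 and MIR31HG at 4.73 near CDKN2A exceed the member. Near RBL2 at 0.40, SALL1 at 0.97, CYLD at 0.76 and TOX3 at 0.41 also exceed the member, and CHD9 at -0.20 lies lowest. The neighbours of RBL2 were named after their values were seen.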

How the data were processed

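RNA of 6 arrays, 3 of H69M and 3 of H69, was analysed from the series' table of log2 values per probe set as deposited by the authors; RMA and limma are named, without versions, per the submitters' processing notes. Neither genome build nor RMA software was given in the sources used here. RMA compresses differences of dim genes and gives no detection call. The table held 32321 probe sets, of which 19158 carried 1 gene symbol in the platform annotation, 1388 several and 11775 none. For a gene with several probe sets the one with the highest mean was used; each measured member had 1. The lines were compared with limma 3.58.1 in R 4.3.3 (lmFit, eBayes, group as the only term), with Benjamini-Hochberg adjustment over 18404 genes. A difference between 2 genes within arrays was tested by exact two-sided permutation over the 6 arrays.

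The members and lists were chosen with earlier results of these data known. Named genes were the members, up to 4 called genes with the largest change per list, and 7 further genes of the pathway; no member reached a log2 fold change of 1, so the rule for genes of similar pattern named none. Promoters came from RefSeq (GRCh38.p14). Alternatives were the replicate block, 2 other scalings, 2 filters on dim genes, eBayes with trend or robust, array weights, 2 other probe set rules, a log2 fold change of at least 1, and each array left out. On simulated data with 200 of 18404 genes changed, limma recovered 0% of changes of 0.25, 58% of 0.5 and 94% of 1 in log2 in the simulated H69M against H69 comparison. In these data 44.2% of all genes were called, which makes the adjusted threshold easier to pass than in the simulation. The simulated rates are therefore not the detection limit here: LIN52, at 0.26, was called. The number of arrays limits the precision. Python 3.11.15, pandas 2.3.3 and matplotlib 3.10.9 were used for sequences and plots.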

Additional observations from a re-analysis of the deposited data

How the results depend on the processing

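CDK6, CDKN2A and RBL2 kept their direction and their call under all 16 alternatives that give a fold change, with log2 fold changes of 0.76 to 0.90, 0.45 to 0.52 and 0.34 to 0.46. Some of these alternatives could change only the adjusted p of a member, not its fold change. They were the replicate block, the filters on dim genes, eBayes with trend or robust, and the other probe set rules, as each member had 1 probe set. CCND1 lost its call without H69M replicate 1 and without H69M replicate 3. Its log2 fold change ran from 0.26, without H69 replicate 3, to 0.45. The count of higher members was 3 to 4, of higher genes 3318 to 3628 and of lower genes 3521 to 4450 when 1 array was left out. With a log2 fold change of at least 1 also required, 0 members, 1024 genes higher and 500 lower remained past both limits, which the added requirement itself brings about. When 1 array was left out RB1 ran from -0.066 to 0.049, CCND2 from -0.062 to 0.027 and CDK4 from -0.014 to 0.019. Values near 0 changed sign without being called: RB1 was 0.023 with centred arrays, 0.016 with quantile normalization again, 0.020 and 0.0047 without H69 replicates 1 and 2, and 0.049 without H69M replicate 3. CCND2 was 0.022 with centred arrays, 0.040 with quantile normalization again, 0.026 without H69 replicate 1, and 0.012 and 0.027 without H69M replicates 1 and 2. CDK4 was -0.022 with quantile normalization again, -0.014 without H69 replicate 3 and -0.0022 without H69M replicate 2. When 1 array was left out MTAP ran from -0.021 to 0.067, MYEOV from -0.094 to 0.054 and CDKN3 from -0.065 to 0.0070. MYEOV was 0.0012 with quantile normalization again, and CDKN3 was 0.012 with centred arrays and 0.0010 with array weights. Equal replicate numbers did not pair the arrays (r of deviations 0.021, 0.0072 and 0.0099 for replicates 1 to 3). With the replicate block, 3617 genes were higher and 4021 lower, 4 members were higher, and PPP1CC (limma adjusted p = 0.0962), E2F8 (0.0845) and UHRF1 (0.0947) lost their calls. PPP1CC also lost it with centred arrays (0.0863) and with the probe set of largest variance (0.0501). CDK2, CDC25A, CDKN2A-AS1 and SAMD9 gained a call under some settings. Under both filters on dim genes CCND2 was not tested. The cause of these shifts was not tested.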
